A study of Mus musculus with 10 samples.

Results

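The genes described here code for the proteins that remove introns and choose splice sites in the hippocampus of the mouse. They are the SR proteins (symbols beginning Srsf), the heterogeneous nuclear ribonucleoproteins or hnRNPs (Hnrnp), the subunits of the SF3a and SF3b complexes (Sf3a and Sf3b) and the proteins of the small nuclear ribonucleoproteins or snRNPs (Snrp). Members were every probe set of the array annotated to exactly 1 gene symbol of those 4 families, which gave 139 of 45037 probe sets and 47 of 18193 genes. The rule used symbols and no measured value. There were 33 probe sets of 10 Srsf genes, 58 of 19 Hnrnp genes, 30 of 9 Sf3a and Sf3b genes and 18 of 9 Snrp genes. A further 16 probe sets carried a splicing symbol together with the symbol of another gene and were left out.

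The samples were whole hippocampi of female mice of the inbred strain Balb c/J, which all carry the same genome. Mice were ranked by a composite score of repeated open-field tests, in which activity in an open arena is recorded, and mice from the top of the ranking (High Exploration, n = 5) were compared with mice from its bottom (Low Exploration, n = 5). The labels name no genetic change or treatment in either group, each array held RNA of 1 animal, and the labels give the same strain, sex and tissue for all 10. The comparison asks whether transcript levels in the hippocampus differ between genetically identical mice that explore much and little.

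Splicing is carried out by the spliceosome, a machine built from snRNPs. Most of these hold a small nuclear RNA in a ring of Sm proteins, with further proteins of their own. The SF3a and SF3b complexes are parts of the U2 snRNP and hold it on the branch point of the intron. SR proteins mostly promote the use of nearby exons, many hnRNPs oppose it, and the balance between them sets which exons a neuron keeps. Many SR protein and hnRNP genes also make transcripts with a poison exon or a retained intron, so probe sets of 1 gene can follow different transcripts.

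The deposited values were MAS5 signals, which are linear brightness values per probe set, and all levels and differences below are on the log2 scale of those signals. A difference is the mean of High Exploration minus the mean of Low Exploration. Of the 139 probe sets, 109 (in 42 genes) had a mean signal above the median of the array and were tested. The other 30 were dim, with mean levels from 3.83 to 7.31 against the limit of 7.43. Their median difference was -0.45, with 9 above 0 and 21 below it, and the median over all untested probe sets was -0.62.

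The arrays of the groups differed in other ways that touch every value. The spiked hybridisation controls had mean levels of 13.63 ± 0.31 (SD, n = 5) in High Exploration and 14.24 ± 0.29 (SD, n = 5) in Low Exploration. The poly-A controls, which are added to the RNA before labelling, ranged from 11.84 to 13.06 and from 13.58 to 14.67, with no overlap. The log2 ratio of the Gapdh control probe sets near the 3′ end to those near the 5′ end was 4.72 ± 0.48 and 3.72 ± 0.23. The median difference over all 22518 tested probe sets was -0.31 on the deposited scale, and became 0.23 with every array centred on its median, 0.30 with the hybridisation controls made equal, -0.01 after quantile normalization and -0.02 after cyclic loess. Summed levels of neuronal marker genes were 15.14 to 15.57 in High Exploration and 14.53 to 15.09 in Low Exploration (7 of 10 genes above 0), and those of astrocytes were 15.44 to 16.14 and 14.61 to 15.34 (4 of 6). Red blood cell genes gave 7.96 to 9.02 and 9.25 to 10.45 (0 of 4 above 0). Of the 7 listed, 4 had a probe set of their own and only 1 of these was above the limit for testing. The summed levels of oligodendrocytes (15.61 to 16.54 and 15.38 to 16.68), microglia (13.24 to 14.98 and 14.58 to 15.48), endothelium (11.51 to 12.36 and 11.00 to 12.59) and choroid plexus (14.35 to 15.09 and 14.08 to 14.83) overlapped between the groups. Single genes of these lists were above 0 for 4 of 5 oligodendrocyte, 3 of 6 microglial, 1 of 5 endothelial (median -1.03) and 1 of 7 choroid plexus markers (median -1.19). The choroid plexus sum follows Ttr, its brightest gene, whose mean level was 14.65 in the High and 14.08 in the Low Exploration group. The astrocyte sum likewise follows its brightest gene, Gja1, at 15.13 in High and 13.88 in Low Exploration. Of the other astrocyte genes, Aqp4, Aldh1l1 and Gfap differed by 0.75, 0.48 and 0.36, and Slc1a2 and Slc1a3 by -0.24 and -0.16. The hippocampal marker genes Calb1 and Neurod6 were bright, at 13.64 and 11.83 in High Exploration and 12.13 and 10.65 in Low Exploration. They had the largest differences above 0 among the 10 neuronal genes. The other bright ones differed less, from 0.62 for Nptx1 (12.08 and 11.46) to -0.01 for Camk2a (13.27 and 13.28). Prox1 (7.77 and 8.51) and Grik4 (6.80 and 8.00) lay near or below the limit. The part of the controls and of the cell types in the differences below was not tested, and in whole tissue fewer cells of a type and less RNA per cell cannot be told apart.

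None of the 109 splicing probe sets passed limma's test at an adjusted p of 0.05, for which the lowest adjusted p was 0.058. Over all tested probe sets 3 passed (0.0133%). With median centring 12 splicing probe sets passed at an adjusted p of 0.0498, 11 of them higher in High Exploration (of Hnrnpa2b1, Hnrnpab, Hnrnpd, Hnrnpdl, Hnrnpll, Sf3b2, Srsf3 and Srsf6) and 1 lower (of Sf3b2), while 0 passed with equal hybridisation controls, quantile normalization or cyclic loess. Of all tested probe sets 906 (4.02%) passed with that centring, 830 of them higher, so that the shares higher were 10.1% of the splicing probe sets and 3.69% of all. With array weights 14 passed, 10 higher (9.17%, background 2.72%) and 4 lower (3.67%, background 6.99%). Without High Exploration replicate 5 there were 3 (2.75%), all lower (2 of Sf3b2 and 1 of Hnrnpab). Of all tested probe sets 4.63% passed then, 3.86% being lower and 0.768% higher. On the deposited scale 67 of the 109 (61.5%) had a difference above 0, where 38.1% of all tested probe sets did. The share was 81.7% of the splicing probe sets with median centring against 59.9% of all, and 66.1% against 49.7% after quantile normalization. At an unadjusted p under 0.05 there were 27 splicing probe sets (24.8%) with higher and 14 (12.8%) with lower signal in High Exploration, and the background of all tested probe sets was 9.67% and 20.5%. These counts became 53 and 2 with median centring (48.6% and 1.83%, background 23.0% and 5.74%) and 54 and 3 with equal hybridisation controls (49.5% and 2.75%, background 23.2% and 3.94%).

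The groups did not overlap at all for 5 probe sets that were higher (4.59%, background 2.14%) and 4 that were lower (3.67%, background 6.69%). In the brightest decile of signal the share that was higher without overlap was 3.92% of 51 splicing probe sets and 6.77% of all. The share that was lower there was 1.96% and 2.71%, neither splicing share being above that of all probe sets. In the next decile 13.04% of 23 splicing probe sets were higher without overlap (1.998% of all) and 0% lower (7.02% of all). In the decile below it 0% of 17 were higher (0.933% of all) and 17.65% lower (9.28% of all). No splicing probe set was without overlap in the dimmer tested deciles. The 5 higher ones were of Srsf6, Hnrnpab, Hnrnpa2b1, Hnrnpd and Sf3b2, and the 4 lower ones of Srsf5, Hnrnpr, Hnrnpu and Sf3b1. Without Low Exploration replicate 1 the counts were 17 and 8 (15.6% and 7.34%, background 5.40% and 9.24%). Without High Exploration replicate 3 there were 10 higher (9.17%, background 4.37%), and without High Exploration replicate 5 there were 7 lower (6.42%, background 11.1%). The counts were 19 and 0 with median centring (17.4% higher, background 6.97% and 1.55%) and 14 and 0 with equal hybridisation controls (12.8% higher, background 5.87% and 1.09%). They were 7 and 3 after quantile normalization (6.42% and 2.75%, background 2.77% and 3.08%). After cyclic loess they were also 7 and 3 (6.42% and 2.75%, background 2.60% and 3.41%). Named below are the 3 higher and the 3 lower probe sets of lowest p in each family, the brightest probe set of genes from a fixed list, and others that are marked as outside that rule.

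The median difference of the splicing probe sets was 0.41, which is 0.72 above the median of all tested probe sets. It was 0.95 with median centring, 1.02 with equal hybridisation controls and 0.13 when the dim probe sets were kept in. That distance was the same under median centring and equal hybridisation controls, which move all probe sets of an array together, and was 0.37 after quantile normalization and 0.35 after cyclic loess. By family, 35 of 47 Hnrnp probe sets were above 0, with a median of 0.56. Of 25 Srsf probe sets 15 were above 0, with a median of 0.21 (0.38 without Low Exploration replicate 1, and from 0.11 to 0.12 on dropping replicate 1 or 4 of High Exploration or 2 of Low Exploration). That Srsf median was 0.075 with the brightest probe set of each gene and 0.12 with dim probe sets kept in. Of 12 Snrp probe sets 7 were above 0, with a median of 0.88 (0.37 with dim probe sets kept in). With median centring the Hnrnp, Srsf and Snrp medians were 1.101, 0.74 and 1.41. The SF3a and SF3b subunits had a median of -0.15, with 10 of 25 above 0 (-0.09 with the brightest probe set of each gene, and -0.26, -0.27, -0.23 and -0.25 without High Exploration replicate 4 and Low Exploration replicates 1, 2 and 4), a sign that turned to 0.39, 0.46, 0.08 and 0.12 with median centring, equal hybridisation controls, quantile normalization and cyclic loess. With 1 probe set per gene, the brightest, the median was 0.55 over 42 splicing genes, of which 26 were above 0, and -0.13 over all 11500 genes.

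**Figure D1:**
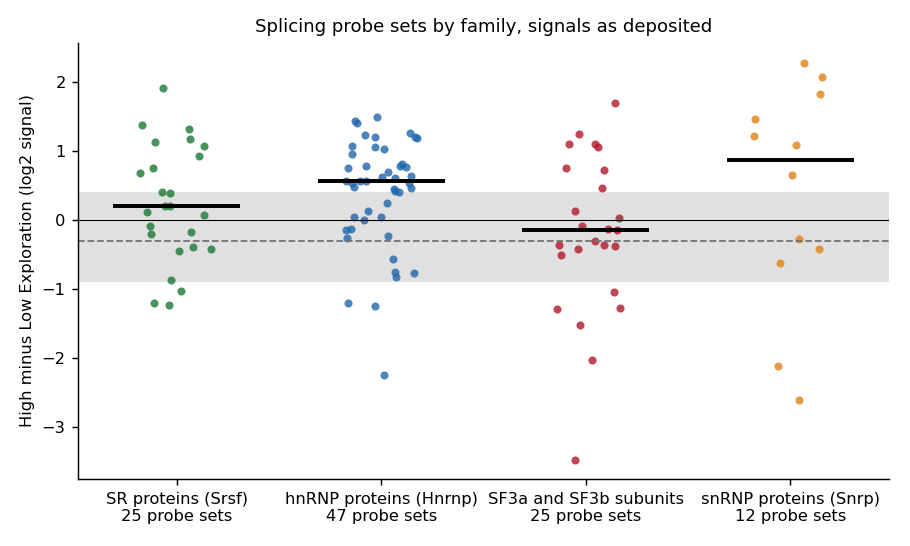
Difference in log2 signal between High and Low Exploration (vertical axis) for each of the 109 tested splicing probe sets, grouped by family along the horizontal axis, with the family median as a black bar. The dashed line is the median of all tested probe sets (-0.31) and the grey band spans their lower to upper quartile (-0.89 to 0.40). The hnRNP and snRNP medians lie above that band, the SR protein median inside it above 0, and the SF3a and SF3b median of -0.15 inside it below 0, a sign that turned under all 4 other scalings.

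The tested splicing probe sets were bright, with a mean level of 10.43 against 9.18 for all tested probe sets, and the difference varied with brightness over the whole array, so each decile of signal was also taken alone. In the brightest decile, which held 51 splicing probe sets, their median difference was 0.73 and 72.5% were above 0, where all probe sets of that decile had 0.43 and 65.6%. An unadjusted p under 0.05 was reached there by 35.3% of the splicing probe sets with higher and 7.84% with lower signal, against 26.8% and 7.35% of all. In the next decile the values were 0.46 (23 splicing probe sets) and -0.17. In the 3 lower deciles above the limit, medians were -0.26 (17 probe sets), 0.05 (7) and -0.18 (11) for the splicing genes and -0.47, -0.55 and -0.57 for all. The splicing median was thus above the median of its own decile in each of the 5 deciles. Within the brightest decile the match was not exact, since the splicing probe sets had a mean level of 12.26 and all probe sets 11.73. Per array, the mean of the splicing probe sets minus the mean of all tested probe sets was 1.76, 1.63, 1.32, 1.39 and 1.32 in High Exploration and 0.97, 1.19, 1.00, 1.20 and 0.79 in Low Exploration, with no overlap. These means were not matched for brightness, and the part of brightness in them was not tested.

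**Figure D2:**
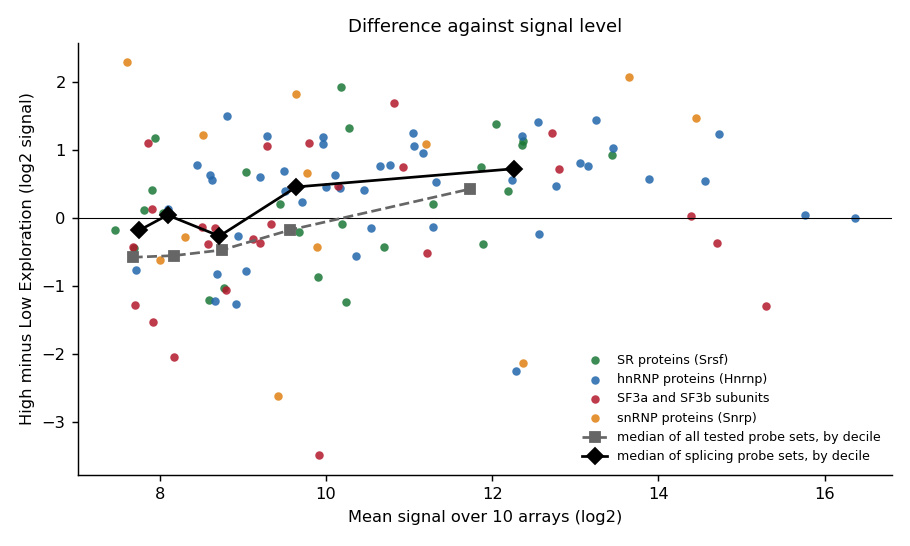
Each point is a tested splicing probe set, with its mean log2 signal over 10 arrays on the horizontal axis and its difference between High and Low Exploration on the vertical axis, on the deposited scale. Black diamonds are medians of the splicing probe sets and grey squares medians of all tested probe sets in the same decile of signal. Both are highest in the brightest decile, at 0.73 and 0.43, and the black diamond is above the grey square in each decile.

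Among the SR proteins, the probe set with the lowest p was of Srsf6, a protein that binds exonic enhancers and also regulates exons of tau. The signal of 1416721_s_at was 11.51, 11.62, 11.13, 10.63 and 10.83 in High Exploration and 9.72, 10.57, 7.06, 9.75 and 9.02 in Low Exploration. All High Exploration arrays lay above all Low Exploration arrays, the widest gap being to Low Exploration replicate 3. The difference was 1.92 (SE 0.56, a 3.79-fold ratio, limma's adjusted p = 0.070). The brightest Srsf6 probe set, 1447898_s_at, which is outside the naming rule, differed by 0.93 (adjusted p = 0.11), and the remaining pair by -0.42 and -0.18.

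Srsf3, the smallest SR protein and also an adaptor for mRNA export, had 6 tested probe sets. For 1416151_at the arrays gave 13.36, 12.78, 11.58, 13.09 and 12.91 in High Exploration and 10.91, 11.90, 10.55, 12.37 and 11.04 in Low Exploration, a difference of 1.39 (SE 0.45, adjusted p = 0.083). The groups overlapped, with High Exploration replicate 3 below Low Exploration replicates 2 and 4. The probe set 1416150_a_at differed by 1.32 (SE 0.45, adjusted p = 0.090) with another order of arrays, Low Exploration replicate 1 being among the high ones at 10.89. The brightest, 1454993_a_at, differed by 1.14 (adjusted p = 0.17), and 1438215_at lay the other way, at 8.25 ± 0.76 in High Exploration and 9.28 ± 0.40 (SD, n = 5) in Low Exploration, a difference of -1.03 (adjusted p = 0.12).

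Srsf5, an SR protein first described in regenerating liver, was measured by 1 tested probe set, 1423130_a_at. Its signal was 8.34, 8.30, 8.28, 8.06 and 6.94 in High Exploration and 9.52, 9.27, 8.56, 9.11 and 9.49 in Low Exploration. Every High Exploration array lay below every Low Exploration array, and replicate 5 was the farthest down. The difference was -1.20 (SE 0.37, 2.3-fold lower, adjusted p = 0.076). For Srsf11, a nuclear speckle protein that regulates microexons of neurons, 1439095_at differed by -1.23 (SE 0.44, adjusted p = 0.097) and the brighter 1427269_at by 0.75 (adjusted p = 0.32). The brightest probe sets of the founding members Srsf1 and Srsf2 differed by 0.40 (SE 0.31, adjusted p = 0.38) and -0.87 (SE 0.48, adjusted p = 0.23), and the value of Srsf1 was -0.07 and -0.03 after quantile normalization and cyclic loess. Outside the naming rule, a second probe set of Srsf2, 1427504_s_at, had 1.17 (unadjusted p = 0.021).

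The hnRNPs bind nascent transcripts along their length, and Hnrnpa2b1, which also directs mRNA to dendrites and myelin, had 4 of 4 tested probe sets above 0. The signal of 1433830_at was 10.45, 10.47, 9.89, 9.12 and 9.55 in High Exploration and 8.56, 8.84, 8.31, 9.01 and 8.71 in Low Exploration. The groups did not overlap, with High Exploration replicate 4 closest to the Low Exploration arrays. The difference was 1.21 (SE 0.35, a 2.31-fold ratio, limma's adjusted p = 0.071). Its brightest probe set, 1433829_a_at, gave 13.89, 12.93, 12.41, 13.66 and 13.42 in High Exploration and 11.24, 12.46, 11.33, 12.87 and 11.34 in Low Exploration, a difference of 1.41 (adjusted p = 0.076) with overlap at Low Exploration replicates 2 and 4. The others differed by 0.96 and 0.54.

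Hnrnpab, a protein of the A/B group that travels with mRNA in neurons, had probe sets on opposite sides. The brightest, 1455855_x_at, gave 13.58, 12.97, 12.07, 13.19 and 12.98 in High Exploration and 11.88, 11.95, 11.65, 11.99 and 11.27 in Low Exploration, with no overlap and a difference of 1.21 (SE 0.35, adjusted p = 0.070). The nearly as bright 1426114_at gave 10.98, 9.90, 10.63, 11.58 and 12.74 in High Exploration and 11.04, 13.82, 14.40, 13.22 and 14.60 in Low Exploration, a difference of -2.25 (SE 0.68, 4.76-fold lower, adjusted p = 0.075). Low Exploration replicate 1 stood with the High Exploration arrays on the latter probe set.

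Hnrnpr, which binds RNA in motor neuron axons, had 5 tested probe sets. For 1452030_a_at the arrays gave 8.20, 7.37, 8.52, 7.96 and 8.20 in High Exploration and 9.29, 8.93, 9.20, 9.04 and 9.86 in Low Exploration, without overlap, and the difference was -1.21 (SE 0.34, adjusted p = 0.067). A second one, 1438807_at, differed by -1.26 (adjusted p = 0.095). The brighter 1427129_a_at, outside the naming rule, differed by 1.06 (adjusted p = 0.12), so the dim and the bright probe sets of Hnrnpr lay on opposite sides.

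Hnrnpk, a protein that binds poly-C stretches, had the brightest splicing probe set of all, 1460547_a_at, whose means were 16.37 ± 0.41 in High Exploration and 16.37 ± 0.41 (SD, n = 5) in Low Exploration. Its difference was -0.003 (SE 0.34, adjusted p = 0.996), and 0.53 with median centring. Hnrnpc, whose protein measures the length of nascent RNA, differed by 0.77 (SE 0.35, adjusted p = 0.16) at 1460240_a_at. Hnrnpa1, which silences exons, differed by -0.14 (SE 0.41, adjusted p = 0.84), and by 0.40 and 0.47 with median centring and equal hybridisation controls. Hnrnpu, a protein of the nuclear scaffold, gave 1.03 (SE 0.37, adjusted p = 0.10) at its brightest probe set and -0.56 (adjusted p = 0.23, no overlap) at 1434391_at, which became 0.05 with equal hybridisation controls.

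A further 3 Hnrnp genes were taken up after their values were seen. Hnrnpdl, a relative of Hnrnpd, had 6 of 6 tested probe sets above 0, from 0.64 to 1.49, of which 4 had an unadjusted p under 0.05. Its brightest, 1424251_a_at, gave 15.76, 14.74, 14.62, 15.98 and 15.67 in High Exploration and 13.61, 14.91, 13.21, 15.18 and 13.65 in Low Exploration (difference 1.24, adjusted p = 0.11). Hnrnpll, known for switching the splicing of CD45 in T cells, differed by 1.44 (adjusted p = 0.076) at 1427144_at. Hnrnpd, or AUF1, which binds AU-rich elements, differed by 1.19 (adjusted p = 0.076) at 1458273_at, with no overlap between the groups.

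**Figure D3:**
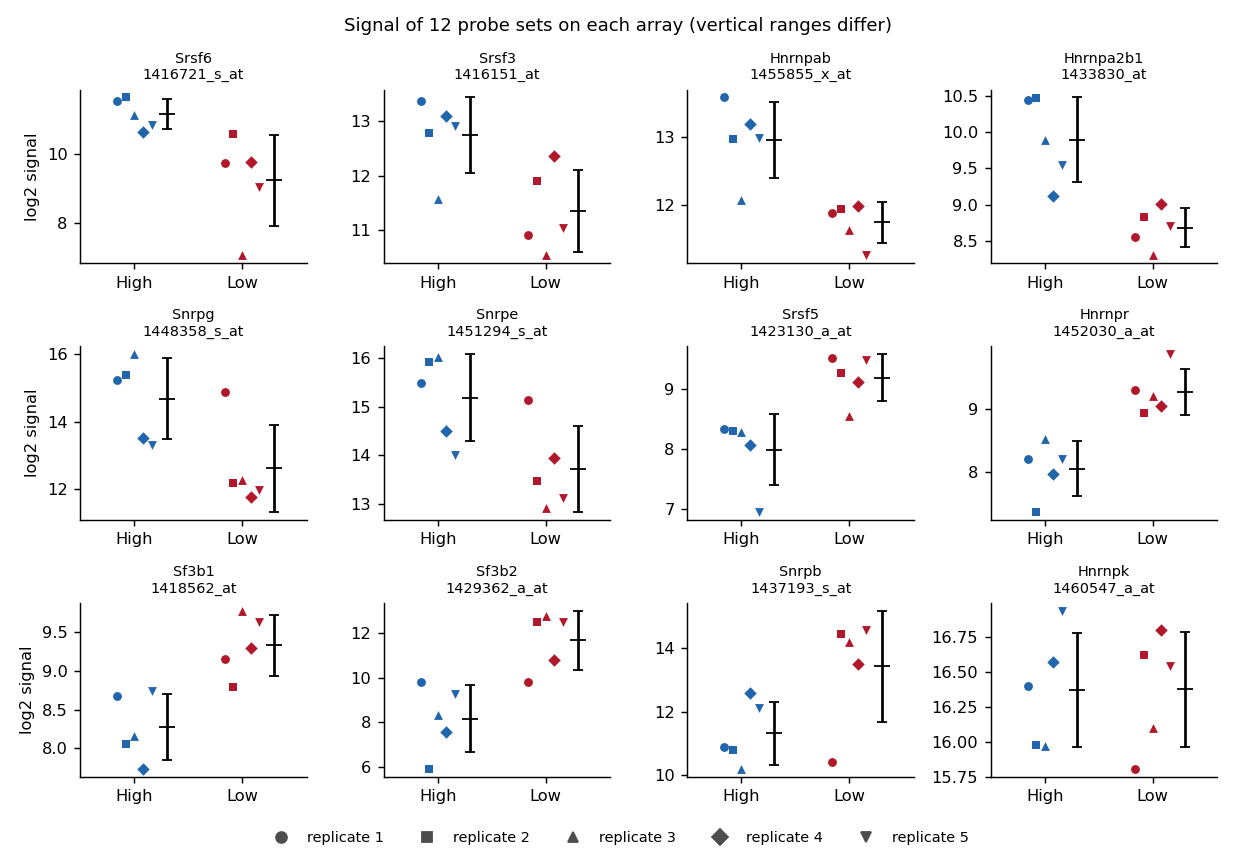
Log2 signal of 12 splicing probe sets on each of the 5 High Exploration (blue) and 5 Low Exploration (red) arrays, with the symbol showing the replicate and a cross bar and whisker the mean ± SD; vertical ranges differ between panels. The blue points lie wholly above the red ones for Srsf6, Hnrnpab and Hnrnpa2b1 and wholly below them for Srsf5, Hnrnpr and Sf3b1, while Low Exploration replicate 1 sits with the High Exploration arrays for Snrpg and Snrpb.

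Sf3b2, the subunit of SF3b that contacts the intron beside the branch point, held the lowest p of all members. Its probe set 1429362_a_at gave 9.78, 5.93, 8.32, 7.57 and 9.26 in High Exploration and 9.78, 12.48, 12.75, 10.78 and 12.47 in Low Exploration. The groups met only at High Exploration replicate 1 and Low Exploration replicate 1. The difference was -3.48 (SE 0.75, 11.2-fold lower, limma's adjusted p = 0.058), and with a pseudocount of 23.0 before the log it was -3.33 (adjusted p = 0.048). With that pseudocount 1 splicing probe set passed (0.917%), where 1.63% of all tested probe sets did. In the same gene 1433461_at was higher on every High Exploration array (10.26, 10.61, 10.93, 9.93 and 10.05) than on any Low Exploration array (9.64, 9.14, 8.57, 9.39 and 9.49), by 1.11 (SE 0.34, adjusted p = 0.077). The dim 1456040_at differed by -1.52 (adjusted p = 0.098) and the brightest, 1438637_x_at, by -0.36 (adjusted p = 0.58), a sign that turned with median centring (0.17) and equal hybridisation controls (0.24).

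Sf3b1, the scaffold of SF3b and the target of splicing inhibitors, also had probe sets on both sides. The signal of 1418562_at was 8.68, 8.05, 8.16, 7.74 and 8.74 in High Exploration and 9.15, 8.79, 9.77, 9.30 and 9.62 in Low Exploration, without overlap (difference -1.05, SE 0.34, adjusted p = 0.083). For 1418561_at the difference was 1.103 (adjusted p = 0.12), and for the brightest, 1440818_s_at, 0.73 (adjusted p = 0.31). Sf3b6, the subunit that touches the branch point adenosine, had 3 of 3 tested probe sets above 0, and 1417055_at differed by 1.70 (SE 0.78, adjusted p = 0.16). Sf3a1, of the SF3a complex, had -0.36 (SE 0.35, adjusted p = 0.49) on the deposited scale and 0.18 with median centring. Outside the naming rule, the brightest Sf3b4 probe set, 1436784_x_at, had -1.29 and 1451185_at of Sf3b5 had -2.03, both with an unadjusted p under 0.05.

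The Sm proteins, which close the ring around the small nuclear RNA, differed in both directions and spread widely between arrays. Snrpg, the Sm protein G, gave 15.24, 15.38, 16.00, 13.51 and 13.31 in High Exploration and 14.89, 12.19, 12.26, 11.76 and 11.96 in Low Exploration at 1448358_s_at. High Exploration replicates 1 to 3 and Low Exploration replicate 1 were bright, and the other 6 arrays were dimmer. The difference was 2.08 (SE 0.67, a 4.22-fold ratio, adjusted p = 0.083), and that of the dim 1448357_at was 2.29 (SE 0.81, adjusted p = 0.096). Snrpe, the Sm protein E, gave 15.50, 15.92, 16.02, 14.50 and 14.01 in High Exploration and 15.14, 13.47, 12.92, 13.95 and 13.13 in Low Exploration, a difference of 1.47 (SE 0.52, adjusted p = 0.095) with the same 4 arrays on top.

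Snrpb, the Sm protein B, lay the other way on the same arrays. Its probe set 1437193_s_at gave 10.88, 10.78, 10.19, 12.59 and 12.12 in High Exploration and 10.39, 14.45, 14.22, 13.51 and 14.60 in Low Exploration, and here Low Exploration replicate 1 was among the lowest. The difference was -2.12 (SE 0.75, 4.35-fold lower, adjusted p = 0.097). Snrpd3, the Sm protein D3, had 1.83 (SE 0.74, adjusted p = 0.13) at 1449629_s_at and -2.62 (SE 1.05, adjusted p = 0.12) at 1422885_at. Of the U1 protein gene Snrpc, 1444655_at had -0.62 (adjusted p = 0.39). Snrpn, an imprinted Sm gene of neurons, was below the limit on its 1 probe set, at 4.29 ± 1.23 in High Exploration and 6.70 ± 1.49 (SD, n = 5) in Low Exploration, and was not tested. Probe sets whose name ends in _s_at, as for Snrpg, Snrpe and Snrpb, share probes among several transcripts, and the signals of such genes and their near-identical copies cannot be separated.

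In 3 genes every tested probe set was higher at an unadjusted p under 0.05 and the promoter window lay outside the annotated gene, namely Snrpg (2 probe sets), Snrpe and Hnrnpa0 (1 each). Hnrnpa0, an hnRNP that binds AU-rich mRNA, gave 12.27, 12.69, 11.87, 11.11 and 10.45 in High Exploration and 11.63, 10.45, 10.44, 10.12 and 9.46 in Low Exploration at 1428407_at (difference 1.26, adjusted p = 0.12). The 250 bases before the start of each gene are shown because the 3 genes lay on the same side, in RefSeq's GRCm38.p6 and read 5′ to 3′ on the strand of the gene. Capitals mark the CCAAT box (CCAAT), the GC box (GGGCGG) and the core of ETS sites (CGGAAG) on either strand, and no match overlapped another. The windows are chr6:86371290-86371539 on the plus strand for Snrpg, chr1:133610281-133610530 on the minus strand for Snrpe and chr13:58128557-58128806 on the minus strand for Hnrnpa0. Each lay outside the annotated span of its own gene, and overlap with other annotated genes was not checked.
Snrpg: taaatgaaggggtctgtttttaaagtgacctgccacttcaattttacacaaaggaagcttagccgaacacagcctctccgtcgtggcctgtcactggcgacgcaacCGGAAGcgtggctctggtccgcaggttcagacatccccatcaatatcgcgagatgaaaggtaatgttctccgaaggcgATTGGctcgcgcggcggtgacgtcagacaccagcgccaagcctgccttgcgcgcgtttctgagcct
Snrpe: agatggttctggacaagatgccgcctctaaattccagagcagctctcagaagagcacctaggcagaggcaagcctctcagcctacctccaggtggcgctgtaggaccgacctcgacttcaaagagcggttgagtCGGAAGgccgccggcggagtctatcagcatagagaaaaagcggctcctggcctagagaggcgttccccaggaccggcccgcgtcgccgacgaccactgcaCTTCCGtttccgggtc
Hnrnpa0: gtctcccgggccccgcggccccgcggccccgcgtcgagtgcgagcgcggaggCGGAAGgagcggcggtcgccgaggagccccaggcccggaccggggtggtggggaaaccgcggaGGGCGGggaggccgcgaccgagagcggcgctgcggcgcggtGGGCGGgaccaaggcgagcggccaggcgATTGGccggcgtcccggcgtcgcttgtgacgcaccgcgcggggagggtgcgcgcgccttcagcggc

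Snrpg held 1 CCAAT (as ATTGG, beginning 66 bases before the start) and 1 CGGAAG (144 bases before). Snrpe held CGGAAG 2 times, 116 and 16 bases before the start, the latter as CTTCCG. Hnrnpa0 held 2 GGGCGG, 1 CGGAAG and 1 CCAAT. The ETS core CGGAAG was in 46.6% of 58 windows of 42 splicing genes and in 13.6% of 32851 windows of all genes. GGGCGG, the GC box, was in 65.5% and 32.7%, CCAAT in 44.8% and 33.8%, and TATAAA in 8.62% and 12.4%. The windows of splicing genes had a median GC content of 60.6% and 19 CpG, against 52.4% and 6 for all windows, and the part of that composition in the shares was not tested.

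Probe sets of the same gene often lay on opposite sides. Of 31 splicing genes with 2 or more tested probe sets, 9 had all of them above 0, 5 all below and 17 (54.8%) some on either side, where 2365 of 4309 genes of the array (54.9%) did. In 6 genes (Hnrnpab, Hnrnpr, Sf3b1, Sf3b2, Snrpd3 and Srsf3) an unadjusted p under 0.05 was reached in both directions. That is 19.4% of the 31, where 277 of the 4309 genes (6.43%) did so, but the splicing genes had a mean of 3.16 tested probe sets each and the 4309 genes 2.53, and no count matched for that number was made. These counts are for the deposited scale, on which the median difference of all tested probe sets was -0.31. By decile of signal that median ran from -0.57 in the dimmest tested decile to 0.43 in the brightest.

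**Figure D4:**
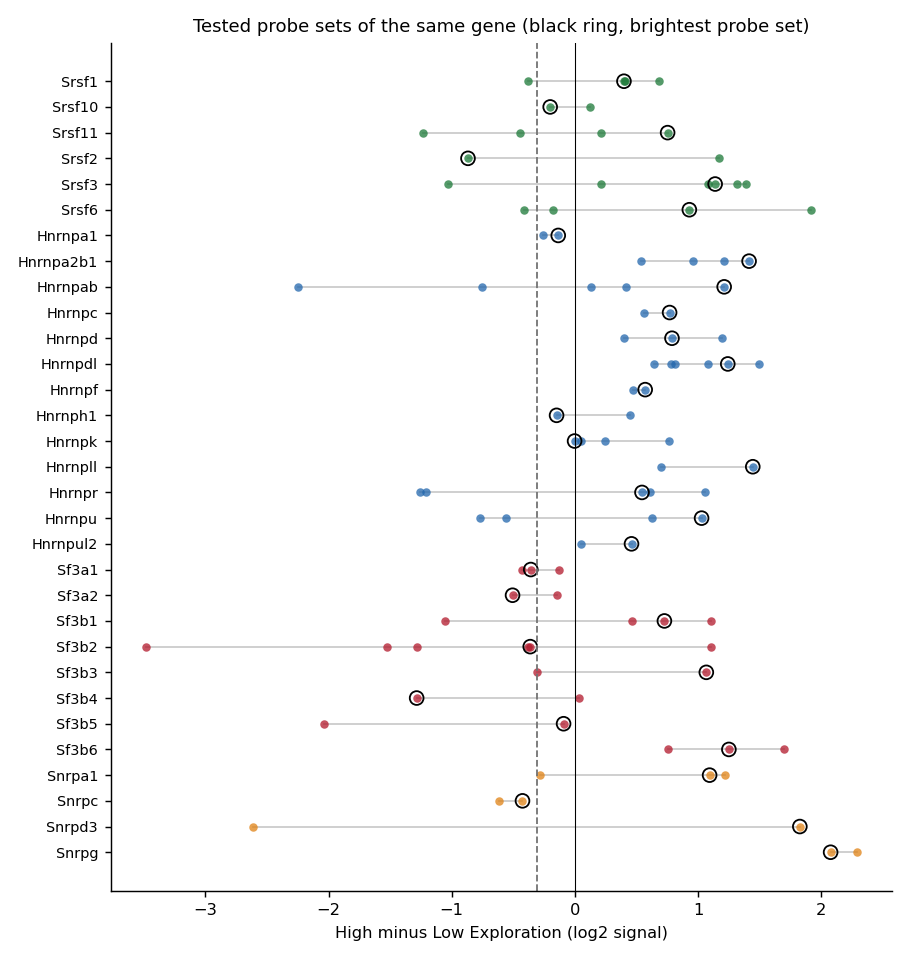
Differences in log2 signal between High and Low Exploration (horizontal axis) of the tested probe sets of the 31 splicing genes with 2 or more of them (rows), on the deposited scale. A black ring marks the brightest probe set of each gene, the dashed line the median of all tested probe sets (-0.31); 17 of the 31 rows cross 0, and Sf3b2 and Snrpd3 span the widest range.

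A ratio of 2 probe sets on the same array is free of any constant scaling of that array, so the brightest probe set of each gene was set against each other one. None of the 67 ratios in 31 splicing genes passed limma's test at an adjusted p of 0.05, and 35 of 6578 did over all genes (0.532%). Leaving out High Exploration replicate 3 gave 1 (1.49%, background 1.75%), and leaving out High Exploration replicate 5 or Low Exploration replicate 1 gave 3 each (4.48%, background 6.40% and 2.99%). An unadjusted p under 0.05 was reached by 18 (26.9%, background 25.2%), 15 of them with a larger ratio in High Exploration (22.4%, background 18.6%). The groups did not overlap for 3 (4.48%, background 6.87%). The ratio was larger in High Exploration for 44 (65.7%, background 60.4%).

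The lowest p belonged to Sf3b2. The log2 ratio of 1438637_x_at to 1429362_a_at was 4.32, 8.05, 5.91, 7.35 and 6.13 in High Exploration and 3.78, 2.69, 2.39, 4.25 and 3.06 in Low Exploration, and every High Exploration array was above every Low Exploration array. The ratio differed by 3.12 (SE 0.67, limma's adjusted p = 0.0505). For Hnrnpab the ratio of 1455855_x_at to 1426114_at was 2.60, 3.08, 1.44, 1.61 and 0.25 in High Exploration and 0.84, -1.87, -2.75, -1.22 and -3.33 in Low Exploration, above 0 on all High Exploration arrays and on 1 of 5 Low Exploration arrays. It differed by 3.46 (SE 0.77, adjusted p = 0.0505). Both were past the threshold with a pseudocount of 23.0, at an adjusted p of 0.041. These 2 were 2.99% of the splicing ratios, where 3.42% of all ratios passed with that pseudocount.

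The other ratios of lowest p were of Snrpd3, Srsf11, Srsf3 and Hnrnpu. That of Snrpd3 differed by 4.44 (SE 1.29, adjusted p = 0.067), with Low Exploration replicate 1 (3.14) among the High Exploration arrays. High Exploration replicate 5 (-0.69) lay below the other High Exploration arrays and above the remaining Low Exploration arrays. Srsf11 differed by 1.99 (SE 0.57, adjusted p = 0.064) and Srsf3 by 2.17 (SE 0.67, adjusted p = 0.077). For Hnrnpu the ratio differed by 1.59 (SE 0.50, adjusted p = 0.079) and the groups did not overlap. Where along the transcripts the probe sets lie was not analysed here. Whether the _x_at probe sets in the Sf3b2 and Hnrnpab ratios also match transcripts of other genes was not tested. The log2 Gapdh ratio between the ends ranged from 3.96 to 5.21 in High Exploration and from 3.49 to 4.06 in Low Exploration, and its part in these ratios was not tested.

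**Figure D5:**
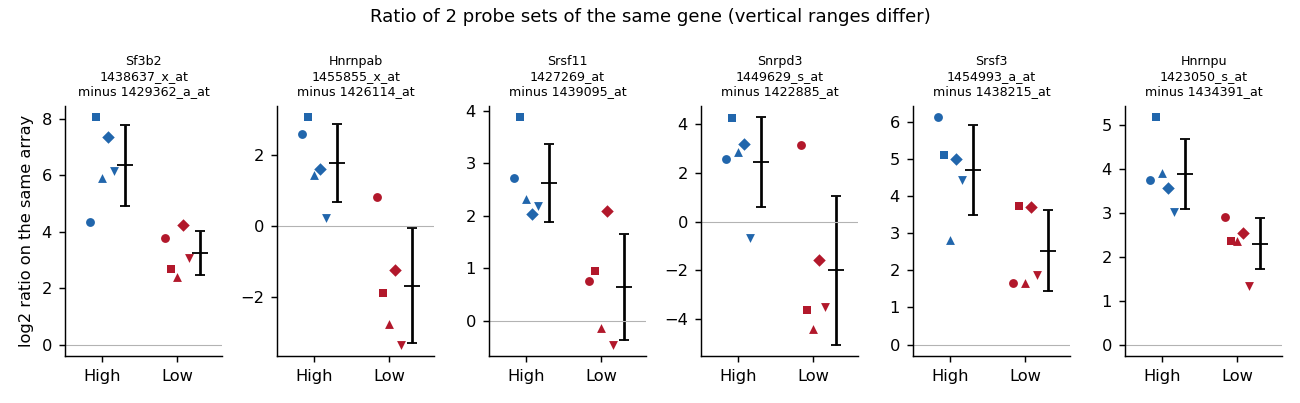
Log2 ratio of the brightest probe set to another probe set of the same gene on each High Exploration (blue) and Low Exploration (red) array, with mean ± SD, for the 6 splicing ratios with the smallest p; vertical ranges differ and the grey line is a ratio of 0. All 6 means are higher in High Exploration, and the groups do not overlap for Sf3b2 and Hnrnpu.

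Other genes of the pathway, at the brightest tested probe set of each gene, had medians from 0.06 to 0.23, beside 0.55 for the splicing genes above. These medians were not matched for brightness. The mean level was 9.93 for the U4/U6.U5 and catalytic spliceosome and 10.08 for the kinases and SR-related proteins. It was 11.47 for the other regulators of splice site choice and 11.70 for the splicing genes above. Over the brightest probe set of all 11500 genes 44.7% were above 0, and an unadjusted p under 0.05 was reached by 12.1% with higher and 14.5% with lower signal. Of 45 tested genes of the U4/U6.U5 and catalytic spliceosome 25 (55.6%) were above 0 (median 0.06), 4 with an unadjusted p under 0.05 above (8.89%) and 5 below (11.1%). Snrnp40, a protein of the U5 snRNP, differed by 1.52 (SE 0.48, adjusted p = 0.080), and U2af1, which reads the end of the intron, by -1.04 (SE 0.35, adjusted p = 0.087) with no overlap. Of 18 splicing kinases and SR-related proteins 12 (66.7%) were above 0 (median 0.23), 3 with an unadjusted p under 0.05 above (16.7%) and 1 below (5.56%). Srrm2, a scaffold of nuclear speckles, differed by -1.66 (SE 0.39, adjusted p = 0.059), and Clk1, a kinase of SR proteins, by 1.18 (SE 0.36, adjusted p = 0.076), both without overlap. Of 39 other regulators of splice site choice 24 (61.5%) were above 0 (median 0.22), 11 with an unadjusted p under 0.05 above (28.2%) and 4 below (10.3%). Elavl2, a neuronal RNA-binding protein, differed by 1.14 (SE 0.33) and Syncrip, a relative of Hnrnpr, by 1.18 (SE 0.34), each with an adjusted p of 0.069 and no overlap. None of these genes passed limma's threshold, and the median over the brightest probe set of all genes was -0.13.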

How the data were processed

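RNA of 10 hippocampi was hybridised to Affymetrix mouse expression arrays, 1 animal each. The authors deposited MAS5 signal intensity per probe set, made with Affymetrix Expression Console per the study's methods; the submitters' processing notes name MAS5. The labels give the standard protocol and the study's methods a second round of amplification, so the amplification used is not settled, and a second round shortens copies. Groups came from the labels. GEO's text on the overall design concerns other mice and was left aside.

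Of 45101 probe sets, 64 controls were left out. The log2 of the signals, with no further normalization, was tested with limma 3.58.1 in R 4.3.3 (lmFit and eBayes, High minus Low Exploration, Benjamini-Hochberg, threshold 0.05) over the 22518 probe sets whose mean log2 signal was above the median. Ratios of probe sets within genes were tested the same way over all 6578 ratios. The test was also run on simulated data, drawn independently for each probe set with known changes added. Those data held no differences between arrays like those of the controls, so they could not check the test for them. Symbols came from the platform annotation (34958 probe sets with 1 symbol, 932 with several, 9211 with none), and all 139 splicing symbols matched RefSeq by Entrez identifier. Of 14 genes on the fixed list 12 had a probe set; the others were not analysed here.

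Named probe sets were, in each family, the 3 higher and 3 lower ones of smallest p, the brightest of each fixed gene, and the 6 ratios of smallest p. Members and lists were chosen with earlier results of these data known. Alternatives were other scalings and normalizations, a pseudocount at the lowest 10% of signals, testing all probe sets, weighting the arrays and dropping each array in turn. No 2 arrays were identical, and correlations between arrays ranged from 0.593 to 0.865. The number of arrays limits the precision, and p-values measure the spread between animals and arrays together.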

Additional observations from a re-analysis of the deposited data

Results flagged for a closer look

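Among 76 groups of 5 values, 5 held a sample far from the rest by Dixon's test, and chance gives about 1 in 20. In 4 of the 5 the sample was Low Exploration replicate 1. Its log2 signal was 10.89 for Srsf3 at 1416150_a_at, where the nearest array of the group had 9.59. For Snrpg at 1448358_s_at it was 14.89 (nearest 12.26), for Snrpb at 1437193_s_at 10.39 (nearest 13.51) and for Sf3b2 at 1438637_x_at 13.56 (nearest 15.03). High Exploration replicate 5 had 6.94 for Srsf5 at 1423130_a_at, where the nearest array had 8.06.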

How the results depend on the processing

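No paired analysis was possible because the titles give animal identifiers that the groups do not share. The number of splicing probe sets past limma's threshold was 0 on the deposited scale, 12 with median centring, 1 with the pseudocount, 14 with array weights and 0 to 3 with 1 array left out, where 3, 906, 366, 2186 and 2 to 1042 of all 22518 tested probe sets passed. Non-overlapping probe sets that were higher numbered 19 with median centring and 14 with equal hybridisation controls (5 to 17 with 1 array left out), and those that were lower 0 and 0 (4 to 8), beside 6.97% and 5.87% higher and 1.55% and 1.09% lower of all under those scalings. After quantile normalization 7 were higher and 3 lower (6.42% and 2.75%, background 2.77% and 3.08%). After cyclic loess the counts were also 7 and 3 (background 2.60% and 3.41%). The count at an unadjusted p under 0.05 was added after seeing the data. With median centring and equal hybridisation controls 53 and 54 were higher (48.6% and 49.5%, background 23.0% and 23.2%). Those that were lower numbered 2 and 3 (1.83% and 2.75%, background 5.74% and 3.94%). After quantile normalization 8 were lower (7.34%, background 10.7%). The median difference was 0.95 with median centring, 1.02 with equal hybridisation controls and 0.13 without the filter. Its distance from the median of all tested probe sets, also added after seeing the data, was 0.37 after quantile normalization, 0.35 after cyclic loess and 0.56 to 0.72 with 1 array left out. For median centring, equal hybridisation controls, quantile normalization and cyclic loess, the Srsf median was 0.74, 0.81, 0.36 and 0.39 (0.12 without the filter, 0.075 with the brightest probe set per gene) and the Sf3 median 0.39, 0.46, 0.080 and 0.12. The Hnrnp median was 1.101 and 1.17 under the first pair, and the Snrp median 1.41 and 1.48, 0.37 without the filter and 1.09 with the brightest probe set per gene. With 1 array left out the medians ranged from 0.11 to 0.38 (Srsf), 0.46 to 0.67 (Hnrnp), -0.27 to -0.11 (Sf3) and 0.62 to 1.13 (Snrp). Ratios past the threshold numbered 2 with the pseudocount, 6 with array weights and 0 to 3 with 1 array left out, and 225, 636 and 0 to 421 of the 6578 over all genes.

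Of the named probe sets, these turned in sign. Srsf1 1434972_x_at was -0.070 and -0.028 after quantile normalization and cyclic loess. With median centring and equal hybridisation controls Hnrnpa1 1436549_a_at was 0.40 and 0.47, Hnrnpk 1460547_a_at 0.53 and 0.60, Sf3a1 1449333_at 0.18 and 0.25 and Sf3b2 1438637_x_at 0.17 and 0.24, and with the latter alone Hnrnpu 1434391_at was 0.048. With 1 array left out, Hnrnpa1 ranged from -0.40 to 0.044 (the latter without High Exploration replicate 3) and Hnrnpk ranged from -0.14 to 0.10. Beside these 17 reversals, 667 comparisons of single probe sets or ratios with an alternative kept direction and side of the threshold and 35 passed it. The cause of these differences was not tested.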
